A study of Mus musculus with 7 samples.

Results

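The genes described here are those of glucose uptake, glycolysis, lactate export and the response to low oxygen. They were taken as a list of 34 symbols, and all 34 had a row in the deposited table of 16047 genes. Of these, 32 had a mean of at least 1 RPKM (reads scaled to transcript length and to the reads of the library) over the 7 libraries and are the members described. The other 2 were Pfkm, the muscle phosphofructokinase, at 1.04 ± 0.30 RPKM in PBS and 0.539 ± 0.171 in MC-21 neutrophils, and Aldoc, the brain aldolase, at 0.665 ± 0.413 and 0.547 ± 0.285 (mean ± SD, n = 4 and n = 3).

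Glycolysis splits glucose into pyruvate in the cytosol and yields ATP without oxygen, and lactate dehydrogenase then turns pyruvate into lactate, which leaves the cell through monocarboxylate transporters. Neutrophils hold few mitochondria and draw most of their ATP from this pathway. When oxygen is low, prolyl hydroxylases no longer mark the hypoxia-inducible factor (HIF) subunit HIF-1α for degradation. It then pairs with ARNT and binds hypoxia response elements, short DNA sites beside many glycolytic genes and beside genes of angiogenesis, mitophagy and collagen hydroxylation.

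Neutrophils were sorted from livers of C57BL/6 mice 24 h after liver injury by acetaminophen (AILI), with 50000 cells taken from each liver. The 4 PBS libraries came from mice injected with PBS, and the 3 MC-21 libraries from mice injected with 400 µL of conditioned medium holding 29 µg/mL of MC-21, an antibody to CCR2 that removes circulating Ly6C-high monocytes. Injections began 12 h before acetaminophen and were repeated every 24 h, so all 7 mice shared the injury and differed in the antibody, while the controls received neither conditioned medium nor another antibody. The gate was CD11b+, Ly6C-low, Ly6G+ and CX3CR1-GFP-, each library was taken as 1 mouse, and uninjured livers were not analysed here. The labels name the strain as C57BL/6 and no GFP reporter allele, whereas a GFP gate refers to Cx3cr1 gfp/+ mice, which the study also used, so the reporter genotype of these 7 mice is not settled here. The mice are numbered as in the labels, PBS 5 to 8 and MC-21 2 to 4. The comparison asks whether the absence of infiltrating monocytes was accompanied by other transcript levels of these genes in neutrophils.

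The neutrophil genes were abundant, with S100a9 at 12275 to 25041 RPKM and Ly6g at 16.3 to 69.0 RPKM. All 8 neutrophil markers on the list were measured, and 3 of them (S100a8, S100a9 and Retnlg) were higher in MC-21 at an unadjusted p under 0.05, none at an adjusted p under 0.05. Of 13 monocyte and macrophage markers tested, 12 had lower values in MC-21 neutrophils, where 69.4% of all genes tested were lower. Ccr2, C1qa, C1qb and C1qc fell at an adjusted p under 0.05, against 0.625% of all genes called in either direction. All monocyte and macrophage markers of the list summed to 1953 to 2283 RPKM in PBS and 1099 to 1597 in MC-21 libraries, with Ccr2 listed at 0 in MC-21 3. Apoe made up most of this sum, at 1216 to 1674 and 803 to 1202 RPKM. Summed endothelial markers reached 1361 to 2810 RPKM in PBS and 1409 to 2450 in MC-21, and hepatocyte markers 188 to 421 and 198 to 317. Platelet markers summed to 82.3 to 250.1 and 41.6 to 69.1 RPKM, most of it Pf4, at 75.0 to 244 and 36.7 to 60.9 RPKM. The other platelet markers did not share this, as Ppbp overlapped and Itga2b was higher in MC-21 without overlap, at 2.30 to 3.26 and 3.56 to 4.32 RPKM. Lymphocyte markers summed to 18.3 to 38.6 and 11.1 to 16.3, erythroid markers to 54.0 to 95.9 and 59.9 to 108, and Siglecf, of eosinophils, lay at 10.4 to 19.5 and 8.6 to 15.5 RPKM. The part of these other cells in the values below was not tested. The depth, read from the steps between low values, was 2.66 to 3.97 reads per RPKM and kilobase in PBS and 3.58, 1.59 and 2.78 in MC-21 2, 3 and 4. In these bulk samples, fewer cells of a type and less RNA per cell cannot be told apart.

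Since the members were brought together partly as HIF targets, their promoters were searched for the core of the hypoxia response element, ACGTG or GCGTG, on both strands, in the 300 bases from 250 before to 50 after the start (RefSeq, GRCm38.p6). A window was found for 29 members, the exceptions being Bnip3l, Ndrg1 and Slc2a3. The core lay in at least 1 window of 27 of these (93.1%), against 5070 of 7448 genes tested (68.1%), and Gpi1 and Tpi1 held none. By window, it lay in 33 of the members' 40 (82.5%) and in 14380 of all 32851 (43.8%). The latter include windows of genes that were not tested, so the share by gene is the closer comparison. Base composition was not taken into account in either. ACGTG is part of the E-box CACGTG, which other factors bind and which was counted once on each strand. The letters are a description and not a bound site. The 250 bases upstream of the start are shown for the 4 members whose values were higher in MC-21 at an unadjusted p under 0.05, and for Bnip3 and Pgk1, a pair of HIF targets whose log2 fold changes were 0.06 and -0.02. They read 5′ to 3′ on the gene's strand, with matches on either strand in capitals.
Egln3, chr12:54203875-54204124, - strand: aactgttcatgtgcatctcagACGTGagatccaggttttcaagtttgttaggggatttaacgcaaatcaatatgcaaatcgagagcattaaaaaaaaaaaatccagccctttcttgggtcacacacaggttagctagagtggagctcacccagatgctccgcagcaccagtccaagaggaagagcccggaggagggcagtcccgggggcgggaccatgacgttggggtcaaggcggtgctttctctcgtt
Hk3, chr13:55021386-55021635, - strand: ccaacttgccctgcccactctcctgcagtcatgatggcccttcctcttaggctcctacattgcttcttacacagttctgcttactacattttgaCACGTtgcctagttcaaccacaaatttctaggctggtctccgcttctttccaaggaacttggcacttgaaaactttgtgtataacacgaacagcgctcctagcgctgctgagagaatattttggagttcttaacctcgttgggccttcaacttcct
Adm, chr7:110627407-110627656, + strand: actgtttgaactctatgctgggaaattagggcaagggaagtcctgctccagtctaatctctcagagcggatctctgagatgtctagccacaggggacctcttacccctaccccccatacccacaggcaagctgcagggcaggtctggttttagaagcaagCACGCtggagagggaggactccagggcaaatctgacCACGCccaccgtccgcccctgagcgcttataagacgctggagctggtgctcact
Ankrd37, chr8:45999851-46000100, - strand: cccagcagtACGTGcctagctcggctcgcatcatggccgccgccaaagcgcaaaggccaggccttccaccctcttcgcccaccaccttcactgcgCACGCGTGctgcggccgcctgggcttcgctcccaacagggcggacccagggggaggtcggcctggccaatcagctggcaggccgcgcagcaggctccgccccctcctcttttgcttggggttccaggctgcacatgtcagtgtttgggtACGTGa
Bnip3, chr7:138909507-138909756, - strand: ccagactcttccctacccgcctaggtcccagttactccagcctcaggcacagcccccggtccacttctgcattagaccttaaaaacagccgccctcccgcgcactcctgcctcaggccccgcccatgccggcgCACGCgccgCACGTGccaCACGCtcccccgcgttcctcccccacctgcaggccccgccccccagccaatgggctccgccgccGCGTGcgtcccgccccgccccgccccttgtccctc
Pgk1, chrX:106186850-106187099, + strand: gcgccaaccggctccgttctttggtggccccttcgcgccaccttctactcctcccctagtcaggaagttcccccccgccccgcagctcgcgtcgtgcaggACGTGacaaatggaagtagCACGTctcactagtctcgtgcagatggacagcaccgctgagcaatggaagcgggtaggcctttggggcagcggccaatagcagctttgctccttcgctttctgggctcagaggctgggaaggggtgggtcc
Egln3 and Hk3 held 1 match each, Adm 2 and Ankrd37 4, while Bnip3 held 5 and Pgk1 2. These 6 genes were chosen by their differences, so no relation between matches and log2 fold change, nor its absence, can be read from them.

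Neutrophils of PBS livers carried several enzymes of the glycolytic chain at high levels. Others stood lower, such as Pfkl at percentile 82.4 and Hk2 at percentile 64.6 of all 16047 rows. Pkm, the pyruvate kinase, averaged 509.7 ± 125 RPKM (SD, n = 4) and ranked at percentile 99.1 of all 16047 rows. Aldoa, the main aldolase, stood at 360 ± 121 RPKM and percentile 98.6, Ldha at 296 ± 50.9 RPKM and percentile 98.3, and Pgk1 at 203 ± 60.7 RPKM and percentile 97.6. Hif1a and Arnt stood lower than these, at 2.82 ± 1.49 and 5.01 ± 0.595 RPKM. RPKM divides by transcript length although 3′ reads do not grow with it, so the order between genes is approximate. The levels of Pkm, Aldoa, Ldha and Pgk1 are also uncertain because near-identical copies of their 3′ ends lie elsewhere in the genome.

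**Figure D1:**
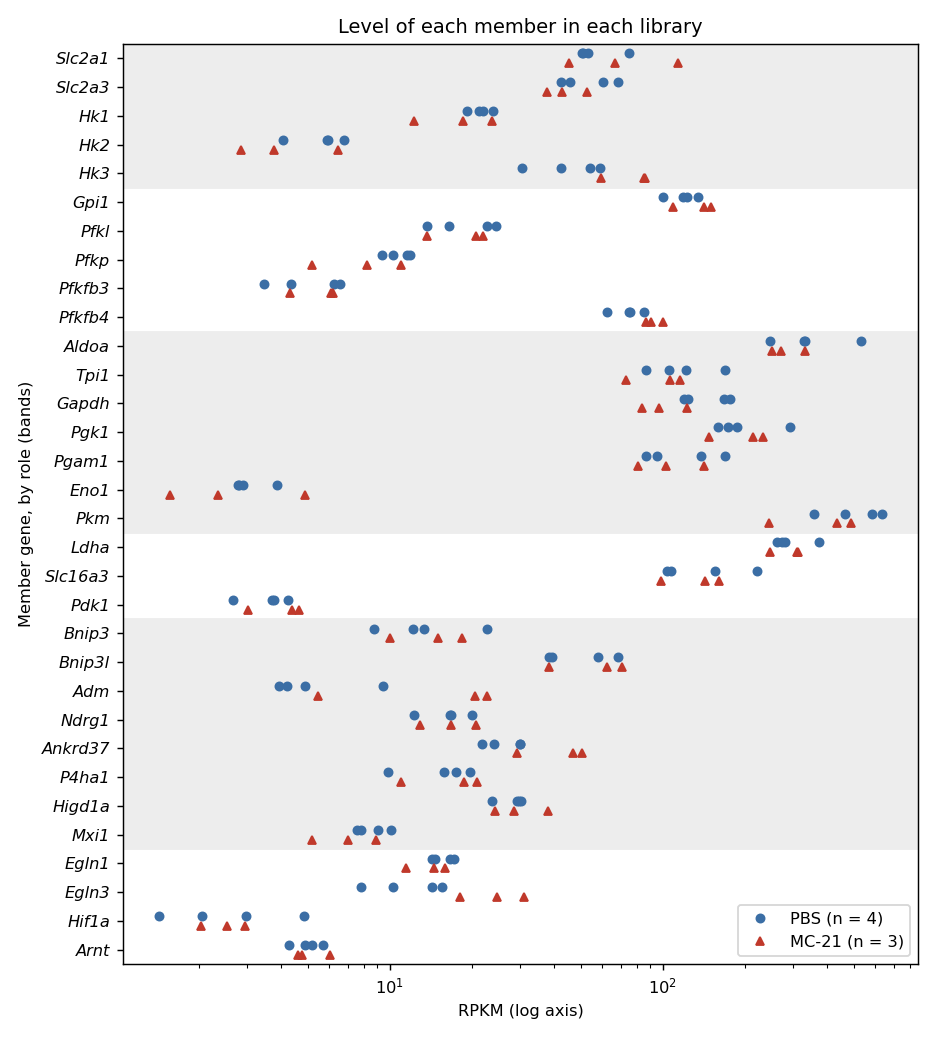
RPKM (log axis) of the 32 members in each library, with bands for roles, blue circles for 4 PBS and red triangles for 3 MC-21 libraries. Pkm, Aldoa, Ldha and Pgk1 lie farthest right, and the groups do not overlap in Hk3, Pfkfb4 and Egln3.

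No member changed at the threshold used across all genes. With limma on log2(RPKM + 1) and Benjamini-Hochberg adjustment over 9594 genes, 0 of 32 members passed an adjusted p of 0.05, the smallest being 0.147 for Egln3, against 0.625% of all genes. At an unadjusted p under 0.05, 5 members (15.6%) passed, close to the 14.7% of all genes, and 4 of them (Egln3, Hk3, Ankrd37 and Adm) were higher and Gapdh lower in MC-21. With a 2-fold change as well, Adm alone passed, against 2.7% of all genes in either direction and 1.02% higher in MC-21.

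The groups did not overlap in 3 members, Hk3, Pfkfb4 and Egln3, all higher in MC-21 (9.38% of the members, against 3.1% of all genes), and 0 members were lower without overlap, against 10.2% of all genes. The median log2 fold change was -0.02 over the members, with 15 higher and 17 lower, and -0.15 over all genes tested, of which 69.4% were lower. The MC-21 libraries had lower medians of log2(RPKM + 1), at 2.89 to 3.07 against 3.13 to 3.23 (two-sided exact permutation p = 0.0286, the smallest that 35 splits allow). With each library centred on its median, 23 members were higher and 9 lower, and with quantile normalization 18 and 14. An unadjusted 95% interval reached 0.53 to either side in the median member, so changes smaller than this could have gone undetected in most members. Larger ones could too, since this interval is not adjusted over all genes. Egln3 at a log2 fold change of 0.99 and Adm at 1.24 were not called (limma adjusted p = 0.147 and 0.266).

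**Figure D2:**
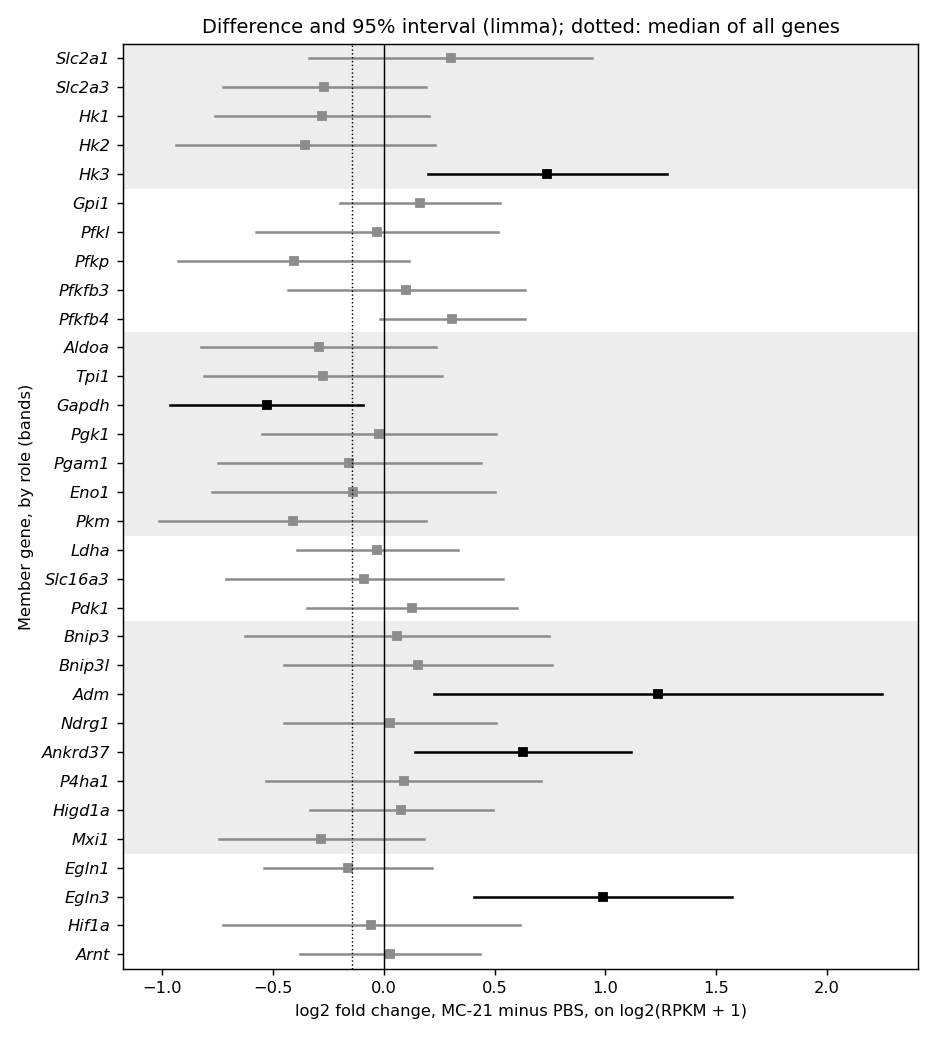
Log2 fold change of each member, MC-21 minus PBS on log2(RPKM + 1), with its 95% interval from limma (3 and 4 libraries), black where the unadjusted p is under 0.05. The dotted line marks -0.15, the median of all genes tested, and Egln3, Adm, Hk3 and Ankrd37 lie to the right of 0 while Gapdh lies to the left.

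Glucose enters through GLUT1 and GLUT3, the products of Slc2a1 and Slc2a3. Slc2a1 stood at 50.5, 53.0, 75.3 and 50.7 RPKM in PBS 5 to 8 and at 66.5, 45.4 and 113 in MC-21 2 to 4. MC-21 4 was the highest library and MC-21 3 the lowest, so the groups overlapped, and the log2 fold change was 0.30 (SE 0.28, limma adjusted p = 0.664). Slc2a3 ranged over 42.3 to 68.3 RPKM in PBS and 37.5 to 52.9 in MC-21.

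Hexokinases trap glucose as glucose-6-phosphate, and Hk3 is the isoform of myeloid cells. Hk3 stood at 30.5, 58.9, 53.9 and 42.5 RPKM in PBS and 85.9, 59.4 and 85.5 RPKM in MC-21. Every MC-21 library lay above every PBS library, although MC-21 3 exceeded PBS 6 by less than 1 RPKM. The log2 fold change was 0.74 (SE 0.24, 95% interval 0.20 to 1.28), with an unadjusted p of 0.0126 and a limma adjusted p of 0.224, which ran from 0.150 to 0.460 over the alternatives. Hk2, an inducible isoform and HIF target, stood at 4.07, 5.88, 5.94 and 6.78 RPKM in PBS and 3.76, 2.85 and 6.46 in MC-21, overlapping (log2 fold change -0.35, 95% interval -0.94 to 0.23). Hk1, the widely expressed isoform, ranged over 19.1 to 23.8 and 12.3 to 23.7 RPKM.

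The makeup of each family does not depend on how a library is scaled, and was computed after the values had been seen. It restates the same RPKM values and adds no separate support. How often such shares separate the groups in other gene families was not computed. Shares of the glucose transporters, of Pfkfb3 and Pfkfb4, of the enolase rows and of Pfkl and Pfkp overlapped, while that of Pfkm was lower in MC-21 without overlap. Hk3 made up 54.0, 70.2, 66.5 and 58.1% of the summed hexokinase RPKM in PBS 5 to 8 and 79.5, 79.7 and 73.9% in MC-21 2 to 4, a mean of 62.2% ± 7.46 against 77.7% ± 3.27 (SD, n = 4 and n = 3). The groups did not overlap. The share of Hk1 was 30.1% ± 7.11 against 18.0% ± 2.17, and that of Hk2 7.70% ± 1.06 against 4.30% ± 1.13, both without overlap. Shares add up to the whole, so a higher share of Hk3 lowers the others and these falls are no separate result. In RPKM, Hk1 and Hk2 overlapped between the groups.

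**Figure D3:**
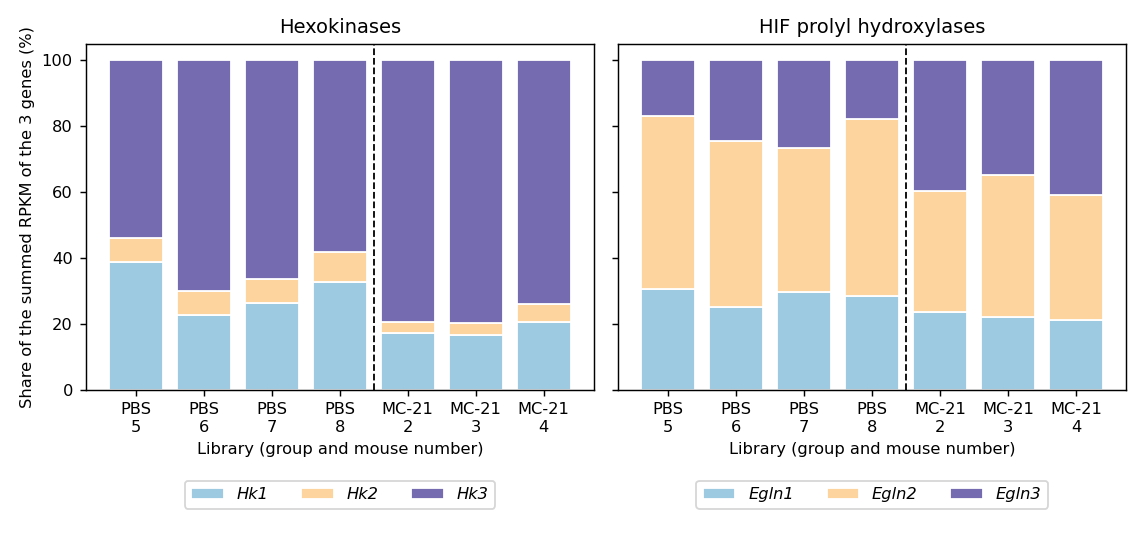
Share (percent) of the summed RPKM of 3 hexokinases (left) and 3 HIF prolyl hydroxylases (right) in each of 4 PBS and 3 MC-21 libraries, each bar adding up to the whole. Hk3 takes 73.9 to 79.7% in MC-21 against 54.0 to 70.2% in PBS, and Egln3 34.9 to 40.8% against 16.8 to 26.7%.

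Gpi1 turns glucose-6-phosphate into fructose-6-phosphate, which phosphofructokinase commits to glycolysis. Gpi1 stood at 122, 99.7, 134 and 118 RPKM in PBS and at 109, 141 and 149.6 in MC-21 (log2 fold change 0.16, 95% interval -0.20 to 0.52). Pfkp, the platelet-type subunit, stood at 9.34, 11.5, 11.8 and 10.3 RPKM in PBS and at 8.24, 5.20 and 11.0 in MC-21. MC-21 4 lay within the PBS range and the other 2 MC-21 libraries below it (log2 fold change -0.41, 95% interval -0.93 to 0.12, limma adjusted p = 0.457). Pfkl, the liver-type subunit, ranged over 13.7 to 24.5 and 13.7 to 22.0 RPKM and was the main one, at 52.8 to 66.0% of the 3 subunits in PBS and 65.6 to 70.9% in MC-21.

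Pfkfb3 and Pfkfb4 set the level of fructose-2,6-bisphosphate, the activator of phosphofructokinase. Pfkfb4 stood at 62.6, 85.5, 75.5 and 74.8 RPKM in PBS and 90.6, 86.6 and 99.8 in MC-21, without overlap. The gap was narrow, with about 1 RPKM between PBS 6 and MC-21 3, and the log2 fold change was 0.31 (SE 0.15, 95% interval -0.02 to 0.64, limma adjusted p = 0.365). Pfkfb3 ranged over 3.47 to 6.55 RPKM in PBS and 4.29 to 6.18 in MC-21, so Pfkfb4 held 91.0 to 96.1% of the pair in all libraries.

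From aldolase to pyruvate, all 7 members had lower mean log2 values in MC-21, where 69.4% of all genes tested were also lower. The falls were 0.02 to 0.53 with a median log2 fold change of -0.27, against -0.15 over all genes tested, and no member passed an adjusted p under 0.05. With median centring 3 of the 7 were higher and 4 lower, with quantile normalization 1 and 6, without PBS 7 or without MC-21 3 it was 2 and 5, and without MC-21 4 it was 1 and 6. Gapdh, glyceraldehyde-3-phosphate dehydrogenase and a common reference gene, stood at 124, 119.6, 176 and 168 RPKM in PBS and at 123, 83.6 and 96.9 in MC-21. MC-21 2 lay within the PBS range and the other 2 below it (log2 fold change -0.53, SE 0.19, 95% interval -0.96 to -0.09, unadjusted p = 0.0224, limma adjusted p = 0.266). Pkm stood at 462, 357, 584 and 636 RPKM in PBS and 434, 245 and 490.2 in MC-21, and MC-21 3 was the lowest of all (log2 fold change -0.41, 95% interval -1.02 to 0.19).

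Aldoa ranged over 247 to 532 RPKM in PBS and 250.4 to 331 in MC-21, with its highest value in PBS 7. Tpi1, triose phosphate isomerase, ranged over 86.5 to 168 and 73.4 to 116 RPKM, Pgk1, the first ATP-yielding kinase of the chain, over 159.7 to 292 and 147 to 233, and Pgam1, phosphoglycerate mutase, over 86.9 to 169 and 81.3 to 141. PBS 7 gave the highest PBS value in each of these. Eno1, enolase, was listed at 2.78 to 3.87 and 1.56 to 4.88 RPKM. The row Eno1b, no member and named after its values were seen, was listed at 76.1 ± 17.1 and 52.6 ± 14.4 RPKM, and held 82.2 to 89.6% of the summed enolase rows against 3.23 to 7.13% for Eno1. Reads of near-identical copies may be split or joined here.

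Near-identical copies touched much of this chain. Over the last 500 bases of the annotated transcripts, where 3′ reads fall, more than 20% of the 32-base words recurred elsewhere in the mm9 genome for 11 of 32 members. These were Gapdh (100%), Pgam1 (99.2%), Pgk1 (93.8%), Eno1 (71.4%), Bnip3 (67.8%), Gpi1 (58.4%), Ldha (57.0%), Pkm (56.1%), Tpi1 (42.9%), Aldoa (37.3%) and Egln1 (26.9%). Every member from aldolase to pyruvate was among them. The handling of reads with several matches is not given in the sources used here, so the levels of these 11 are uncertain. Of the 5 members at an unadjusted p under 0.05, Gapdh was among them. Hk3 and Egln3 had no such word, Adm 4.11% and Ankrd37 3.84%.

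At the fate of pyruvate, the groups overlapped in all 3 members. Ldha, whose enzyme makes lactate, stood at 261, 281, 372 and 272 RPKM in PBS and 312, 246 and 310 in MC-21 (log2 fold change -0.03, 95% interval -0.39 to 0.33). Slc16a3, the lactate exporter MCT4, ranged over 104 to 220 and 98.5 to 160 RPKM. Pdk1, which keeps pyruvate out of the mitochondria, ranged over 2.65 to 4.23 and 3.03 to 4.65 RPKM.

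Among the oxygen sensors, Egln3 had the smallest p of all members. EGLN3 (PHD3) is a prolyl hydroxylase that marks HIF-1α and is itself induced by HIF. The gene lies at chr12:55279968-55304847 on the minus strand (mm9). Egln3 stood at 7.84, 14.3, 15.5 and 10.3 RPKM in PBS and 24.6, 18.1 and 30.9 in MC-21. All 3 MC-21 libraries lay above all 4 PBS libraries. The log2 fold change was 0.99 (SE 0.26, 95% interval 0.41 to 1.57), with an unadjusted p of 0.00386 and a limma adjusted p of 0.147 (0.101 to 0.367 over the alternatives), so it missed the threshold across all genes. An estimated 57.8 to 234 reads lay behind each value.

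Egln3 made up 16.8, 24.5, 26.7 and 17.7% of the 3 prolyl hydroxylases in PBS and 39.8, 34.9 and 40.8% in MC-21, a mean of 21.4% ± 4.92 against 38.5% ± 3.15. The share of Egln1, the main oxygen sensor in most cells, was 28.5% ± 2.43 and 22.2% ± 1.27, and that of Egln2 50.1% ± 4.57 and 39.4% ± 3.34, each lower in MC-21 without overlap. Here too a higher share of Egln3 lowers the others, so these falls are no separate result. The share of Egln3 itself restates its RPKM values and adds no separate support. In RPKM, Egln1 ranged over 14.3 to 17.2 in PBS and 11.4 to 15.9 in MC-21, and Egln2 over 24.5 to 31.1 and 22.4 to 29.0, both overlapping. Hif1a ranged over 1.42 to 4.85 and 2.03 to 2.93 RPKM on 19.0 to 60.9 reads, and Arnt over 4.26 to 5.68 and 4.60 to 6.02.

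Of the 8 other HIF targets, 7 had higher and 1 had lower mean log2 values in MC-21, while 69.4% of all genes tested were lower. The median of these targets was 0.08, against -0.15 over all genes tested, and none passed an adjusted p under 0.05. Without MC-21 4, 3 of the targets were higher and 5 lower, and with library weights 5 and 3. Adm encodes adrenomedullin, a vasodilator peptide, at chr7:117771175-117773331 on the plus strand (mm9). It stood at 9.43, 3.91, 4.90 and 4.2 RPKM in PBS and at 20.5, 5.46 and 22.7 in MC-21. MC-21 2 and 4 stood above every PBS library, but MC-21 3 lay below PBS 5. The log2 fold change was 1.24 (SE 0.45, 95% interval 0.23 to 2.25), with an unadjusted p of 0.0216 and a limma adjusted p of 0.266, which ran from 0.0663 without MC-21 3 to 0.517. The log2 fold change was 1.84 without MC-21 3, 0.97 without MC-21 2 and 0.90 without MC-21 4. The estimated reads were 18.1 to 36.2 in PBS and 102, 12.0 and 87.5 in MC-21 2, 3 and 4.

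Ankrd37, an ankyrin repeat gene known as a HIF-1 target, lies at chr8:47082256-47085221 on the minus strand (mm9). It stood at 24.0, 29.9, 29.9 and 21.8 RPKM in PBS and 46.8, 29.2 and 50.5 in MC-21. As for Adm, MC-21 2 and 4 were above all PBS libraries and MC-21 3 was within their range. The log2 fold change was 0.63 (SE 0.22, 95% interval 0.14 to 1.12), with an unadjusted p of 0.0166 and a limma adjusted p of 0.242 (0.122 to 0.490 over the alternatives).

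**Figure D4:**
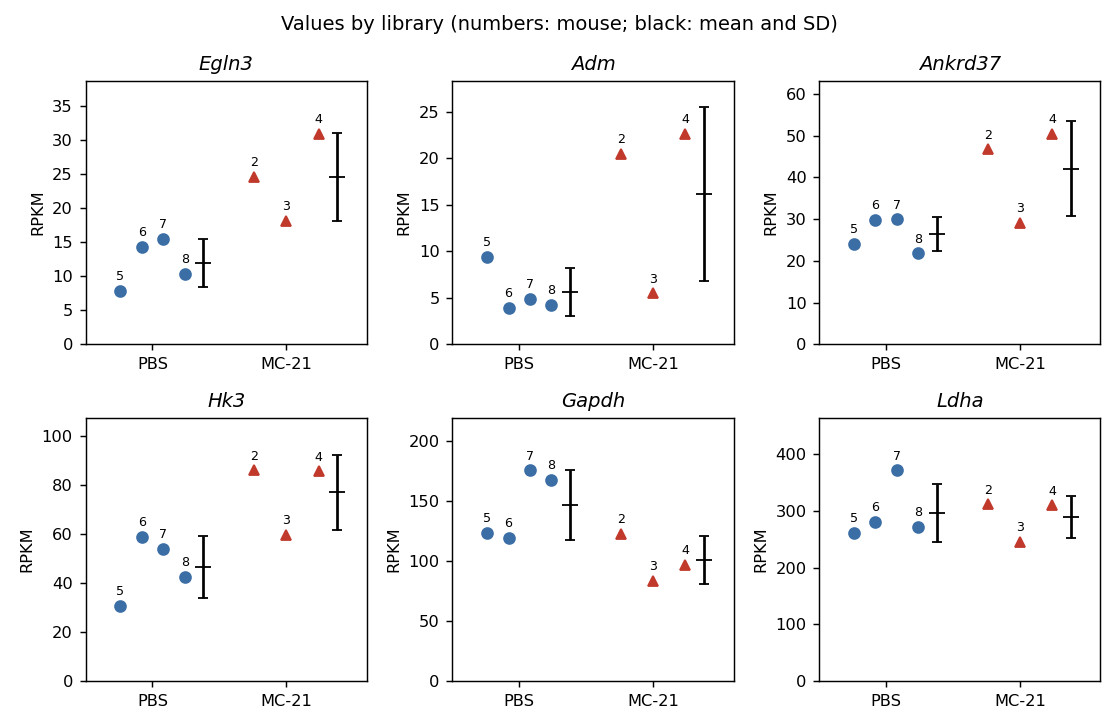
RPKM of Egln3, Adm, Ankrd37, Hk3, Gapdh and Ldha in 4 PBS (blue) and 3 MC-21 (red) libraries numbered by mouse, with mean and SD in black. MC-21 3 is the lowest MC-21 library in all 6 panels, at 5.46 RPKM for Adm against 9.43 in PBS 5.

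The remaining targets overlapped between the groups. Bnip3l, a mitophagy receptor, stood at 39.1, 68.6, 57.8 and 38.3 RPKM in PBS and 62.3, 70.7 and 38.1 in MC-21, and each group held both high and low mice. Bnip3, a related mitophagy receptor, ranged over 8.77 to 22.7 and 10.02 to 18.4 RPKM (log2 fold change 0.06, 95% interval -0.63 to 0.75). Mxi1, an antagonist of MYC, stood at 7.59, 7.86, 10.1 and 9.03 RPKM in PBS and 5.18, 7.04 and 8.89 in MC-21, overlapping (log2 fold change -0.28, 95% interval -0.74 to 0.18). Ndrg1, a stress-induced gene, ranged over 12.3 to 19.9 and 12.9 to 20.7 RPKM, P4ha1, of collagen prolyl hydroxylation, over 9.85 to 19.7 and 11.0 to 20.8, and Higd1a, a mitochondrial hypoxia gene, over 23.7 to 30.1 and 24.2 to 38.0.

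Many members were high or low in the same mice. PBS 7 gave the highest PBS value in 22 of 32 members (68.8%, against 20.6% of all genes) and the lowest in 0, and PBS 5 the lowest in 16 (50.0%, against 28.2%). MC-21 3 gave the lowest MC-21 value in 23 members (71.9%, against 28.9%) and MC-21 4 the highest in 20 (62.5%, against 28.3%). The median deviation of the members from each gene's mean was 0.28 in PBS 7 and -0.17 in PBS 5, and 0.23 in MC-21 4 and -0.24 in MC-21 3 on the log2(RPKM + 1) scale, while over all genes these libraries stood at 0.04, 0.04, -0.13 and -0.04. MC-21 3 was also the shallowest library, and the part of depth in this was not tested. These positions were read after the values had been seen and carry no test.

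**Figure D5:**
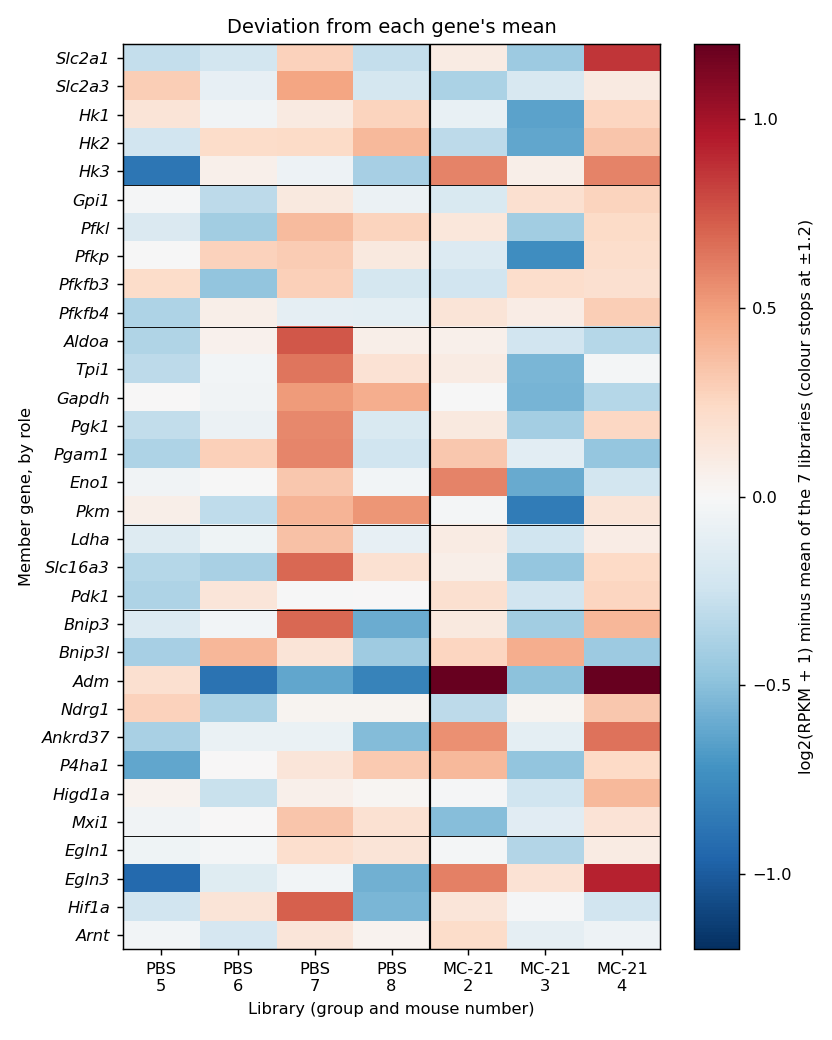
Deviation of each member from its mean over the 7 libraries, in log2(RPKM + 1), red above and blue below, with PBS left of the black line. PBS 7 and MC-21 4 are mostly red and MC-21 3 mostly blue, with member medians of 0.28, 0.23 and -0.24.

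Other genes of the pathway were taken from 4 lists. Of 17 further HIF regulators and targets tested, 1 passed an adjusted p under 0.05, against 0.625% of all genes tested. This was Hilpda, which encodes a lipid droplet protein induced by hypoxia. The study had already reported higher Hilpda in MC-21 neutrophils from these libraries, so it is no independent finding. Hilpda stood at 40.5, 40.5, 38.8 and 39.3 RPKM in PBS and 142, 89.2 and 219 in MC-21. The PBS libraries lay within 2 RPKM of each other and all MC-21 libraries were more than 2-fold above them. The log2 fold change was 1.80 (SE 0.26) with a limma adjusted p of 0.0172, and 0.00749 to 0.103 over the alternatives. It lost the call without PBS 7 (0.0563), without PBS 8 (0.0834) and without MC-21 2 (0.0662), and when no low genes were removed (0.103), at log2 fold changes of 1.79, 1.79, 1.79 and 1.80.

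In the same list 4 of 17 genes (23.5%, against 14.7% of all genes tested) had an unadjusted p under 0.05, all higher in MC-21, and the median log2 fold change was 0.05. Besides Hilpda these were Bhlhe40, Epas1 and Cited2, named after their values were seen, with log2 fold changes of 0.86, 0.68 and 0.96 and limma adjusted p values of 0.180, 0.241 and 0.319. Epas1, which encodes HIF-2α and is also known from endothelium, stood at 48.0 ± 15.1 RPKM in PBS and 74.6 ± 2.67 in MC-21. Vegfa, the angiogenic factor and a standard HIF target, passed no call and was named after its values were seen. It stood at 11.4 ± 2.28 and 12.2 ± 3.66 RPKM (log2 fold change 0.07).

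No gene passed an adjusted p under 0.05 in the 3 metabolic lists, against 0.625% of all genes tested. Over all genes tested, 14.7% had an unadjusted p under 0.05, 69.4% were lower in MC-21 and the median log2 fold change was -0.15. In the pentose phosphate pathway 0 of 8 genes had an unadjusted p under 0.05 and the median log2 fold change was -0.14. For pyruvate entry into mitochondria it was 1 of 9, Pdhx, a subunit of pyruvate dehydrogenase named after its value was seen, at 5.02 ± 0.933 RPKM in PBS and 3.01 ± 0.536 in MC-21 (limma adjusted p = 0.242), with a median of -0.20. In glycogen metabolism it was 0 of 8 with a median of 0.03.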

How the data were processed

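Liver neutrophils of 4 PBS and 3 MC-21 mice were profiled by 3′ RNA-seq. The authors mapped reads to mm9 with HISAT 0.1.5, used SAMtools, and deposited RPKM values per gene from Partek Genomics Suite 6.6. Annotation, strand, multi-mapped reads, barcodes and filters are not given in the sources used here, and no count test was run. Differences were computed on log2(RPKM + 1) as MC-21 minus PBS for the 9594 genes that averaged 1 RPKM or more, using limma 3.58.1 (lmFit, eBayes with trend) in R 4.3.3 and Benjamini-Hochberg adjustment over all of them. The fold change understates that of low genes. The fit was also read at the study's cutoffs, an unadjusted p under 0.05 with a 2-fold change. The labels give each library its own number and the study sorted cells per liver, so each library was taken as 1 mouse. The p-values set the difference between the groups against the spread between libraries.

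The members, gene lists and tests were chosen with earlier results of these data known. Values in every library are given for the 10 members with the smallest p and the most abundant member of each role, and other pathway genes are named where they pass a call or, as said there, after their values were seen. The result of 1 further gene list is not reported here. Library positions, family shares and the scan for copies were added after the values were seen. On simulated data for this comparison (9594 genes, 200 changed by 2 on the log2 scale), 174 (87.0%) were called, with 8 unchanged genes. The largest log2 fold change among the members was 1.24 (Adm). How often genes with differences of the members' size are called was not tested. Alternatives were a pseudocount of 0.1, no filter, a minimum of 5 RPKM, quantile normalization, median centring, no trend, library weights and leaving out each library. Reads were estimated from the steps between low RPKM values and the longest annotated transcript, and cover counting only. Python 3.11.15, numpy 2.4.6, pandas 2.3.3 and matplotlib 3.10.9 were used.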

Additional observations from a re-analysis of the deposited data

Results flagged for a closer look

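Dixon's ratio was applied to the 4 PBS libraries of each of the 32 members and of Hilpda at its 95% critical value, which chance passes in about 1 of 20 groups. Of 33 groups tested, 3 passed, where chance gives 1.65. Slc2a1 was high in PBS 7, at 75.3 RPKM (ratio 0.898), Eno1 was high in PBS 7, at 3.87 RPKM (ratio 0.898), and Higd1a was low in PBS 6, at 23.7 RPKM (ratio 0.865).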

How the results depend on the processing

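No member passed an adjusted p under 0.05 in any of the 14 alternatives, the smallest being 0.0663 for Adm without MC-21 3. The count at an unadjusted p under 0.05 and a 2-fold change was 1 (Adm). It was 2 (Egln3 and Adm) with a pseudocount of 0.1, with quantile normalization and with median centring, and it ran from 0 to 2 when 1 library was left out. It was 2 without PBS 7 or MC-21 3, 0 without PBS 8, MC-21 2 or MC-21 4, and 1, Egln3 in place of Adm, without PBS 6. The count without overlap was 3, and ran from 3 to 7 when 1 library was left out, with 6 without MC-21 2 or MC-21 3 and 7 without MC-21 4, where fewer libraries separate more easily. The median member log2 fold change of -0.02 became 0.10 with quantile normalization and 0.14 with median centring, and ran from -0.10 to 0.10 without 1 library. Over all genes tested, 60 passed an adjusted p under 0.05, and 6 did without a filter, 39 without PBS 5, 102 without PBS 6, 14 without PBS 7, 9 without PBS 8, and 19, 35 and 18 without MC-21 2, 3 and 4. The count of all genes with the 2-fold change was 259, and 433 with a pseudocount of 0.1 and 153 at a minimum of 5 RPKM. The causes were not tested. No paired analysis was possible because the groups share no mouse number. With 4 and 3 mice, a member at the median precision could hide a log2 difference of 0.53 to either side.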
